A study of Mus musculus with 26 samples.

Results

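Autosomal gene expression was compared between the preoptic area of testis-intact males and that of ovary-intact females, in the RNA left after the ribosomes of GnRH neurons had been pulled down. Members were the supernatant libraries of intact mice: 4 pools of males and 3 pools of females, 7 of the 26 libraries of the series. All mice were adult (55 to 165 days) offspring of a GnRH CRE line and a floxed L10a-GFP line, so every group, the gonadectomized ones included, carried the tagged ribosomal protein in GnRH neurons. The tag is confined to the cells in which that Cre acts. The supernatant is a mixture of cells from which GnRH neuron RNA is not fully removed, since every supernatant library held Gnrh1. Females were in diestrus, and each intact pool held 5 to 7 mice. Supernatants of 3 pools of ovariectomized females and 3 pools of castrated males (5 or 7 mice each) share the fit and are given for comparison. Of 23107 genes in the table, 21833 were autosomal, and 15658 of these passed the filter on low counts.

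The preoptic area holds steroid-sensitive neurons that regulate reproduction, and several of its cell groups differ between the sexes. Kisspeptin neurons of its periventricular part are known to be more numerous in female rodents. They release kisspeptin, which acts on the receptor Kiss1r of GnRH neurons, and estradiol is known to raise Kiss1 transcripts there. In bulk tissue, fewer cells of a type and less RNA per cell cannot be told apart.

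Total counts of the 7 libraries ran from 36346115 to 56668581. The labelled sex was checked with sex-linked genes: Ddx3y, Uty, Kdm5d and Eif2s3y were higher in males and Xist in females (edgeR quasi-likelihood test, adjusted p 0.0264 or lower). Female replicate 2 stood apart. It held Ddx3y at 1.69 CPM (counts scaled to a library of fixed effective size) and Eif2s3y at 2.43 CPM, against at most 0.351 and 0.216 CPM in the other intact females, and its Xist level, 6.30 CPM, was the lowest of the females. Its Gnrh1 level, 1561 CPM, compared with 55.4 to 232 in the other 6 libraries, and its summed cortical and olfactory markers, 653.9 CPM, with 288.5 to 410.1. Male replicate 3 held blood markers at a summed 2995 CPM, against 43.9 to 84.2 in the other 6. Values without female replicate 2 are given where they matter.

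Between intact males and females, 2 autosomal genes passed an adjusted p of 0.05 and both were higher in females: Kiss1 and Iapp. No autosomal gene passed in the other direction. These calls are 0.0128% of the autosomal genes tested (edgeR quasi-likelihood test, Benjamini-Hochberg adjustment over all chromosomes). At an unadjusted p under 0.05, 296 genes were higher in females (1.89%) and 266 in males (1.7%), and DESeq2 called 5 (0.0319%) and 1 (0.00639%). The groups did not overlap for 936 genes higher in females (5.98%) and 424 higher in males (2.71%). The median autosomal log2 fold change (male minus female) was 0.02, and 90% of the genes lay between -0.41 and 0.39. Of 13624 autosomal genes averaging at least 1 CPM in a group, 12808 (94%) had a 95% interval that lay within a 2-fold difference.

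**Figure D1:**
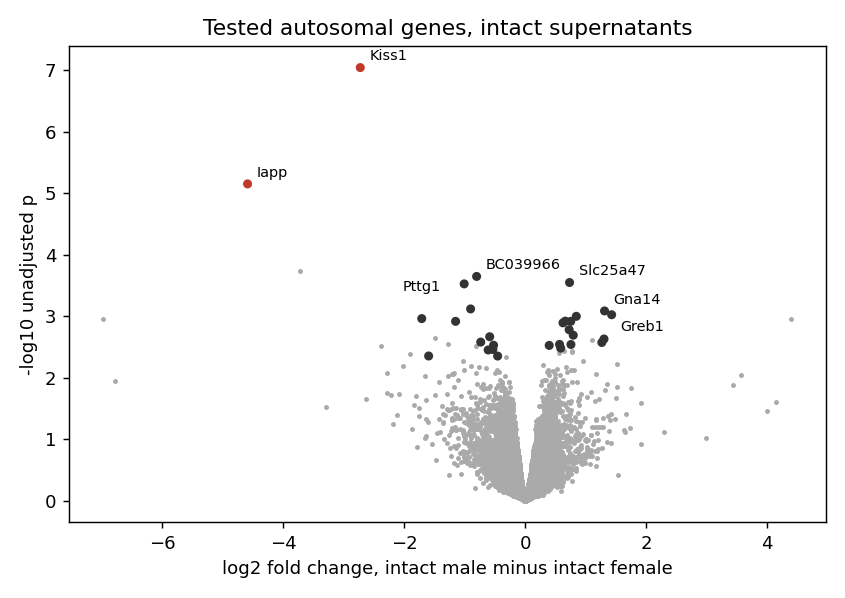
Log2 fold change (intact male minus intact female, horizontal axis) against -log10 of the unadjusted p (vertical axis) for the 15658 tested autosomal genes, with genes named in the text in dark points and the 2 called genes in red. Kiss1 and Iapp lie to the left, higher in females, and no gene on the right reaches their p.

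The sequence upstream of both called genes is shown because they are the only autosomal genes that passed. Each is the 250 bases before the RefSeq start (GRCm38.p6, plus strand), at chr1:133326962-133327211 and chr6:142298175-142298424. Capitals mark the letters GGTCA or their reverse complement TGACC, a half-site of the estrogen receptor, searched on both strands.
Kiss1 upstream: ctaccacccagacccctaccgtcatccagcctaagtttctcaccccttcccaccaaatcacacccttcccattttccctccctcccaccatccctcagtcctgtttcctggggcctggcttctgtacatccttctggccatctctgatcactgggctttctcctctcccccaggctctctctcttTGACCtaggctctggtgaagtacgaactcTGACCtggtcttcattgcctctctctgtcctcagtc
Iapp upstream: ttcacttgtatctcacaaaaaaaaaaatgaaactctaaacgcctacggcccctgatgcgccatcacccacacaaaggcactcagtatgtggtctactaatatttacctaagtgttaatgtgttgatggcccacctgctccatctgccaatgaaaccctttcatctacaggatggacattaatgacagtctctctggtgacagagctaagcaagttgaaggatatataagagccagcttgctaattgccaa
The Kiss1 window holds 2 copies of TGACC, beginning 65 and 36 bases before the start. Of 32851 promoter windows of this length, 35.2% hold at least 1 match on either strand, and the share with 2 or more was not counted. The Iapp window holds none. These are matches of letters and not sites shown to be bound. The GENCODE gene for Kiss1 begins further upstream than this RefSeq start.

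Kiss1, on chromosome 1 from 133321875 to 133329901 (mm10), encodes kisspeptin. Female replicates 0, 1 and 2 held it at 19.8, 26.4 and 11.03 CPM. Male replicates 0 to 3 held 3.12, 3.93, 2.17 and 2.33 CPM. Every female library lay above every male library, and replicate 2 was the lowest of the females. The means were 19.1 ± 7.68 (SD, n = 3) and 2.89 ± 0.81 CPM (SD, n = 4), a 6.62-fold difference (log2 -2.73, SE 0.281, adjusted p 0.000299 by edgeR). Kiss1 was also called under every one of the alternatives tried for this contrast, with log2 between -3.00 and -2.35, and without female replicate 2 the log2 was -3.00. Among pools that share a replicate number, females exceeded males 6.30-fold, 6.68-fold and 5.06-fold. Libraries numbered 1 to 10 by the labels hold replicates 0 and 1 of both sexes, and those numbered 11 to 30 the others. Within the first the log2 was -2.70 (adjusted p 0.00306 by edgeR), and within the second it was -2.35 (0.0178), where female replicate 2 is the only intact female pool and its spread is taken from the other groups.

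Iapp encodes amylin, a peptide hormone of the calcitonin family, and lies on chromosome 6 from 142298423 to 142303961. Female replicates 0, 1 and 2 held 76, 147 and 34 counts of it, and the 4 male replicates 2, 5, 3 and 3. Female levels were 1.83, 3.23 and 0.603 CPM, and no male library exceeded 0.133 CPM. Summed over libraries, the ratio of females to males was 24.04, with an exact 95% interval of 13.8 to 45.8 that covers counting error only. The log2 fold change was -4.59 (SE 0.63, adjusted p 0.0194 by edgeR). This call was lost without any one male replicate, without female replicate 0 or 1, and without ovariectomized replicate 1 (adjusted p 0.0502 to 0.114), and kept without female replicate 2 (0.000928). Within libraries numbered 1 to 10 the log2 of Iapp was -4.73 (adjusted p 0.0476 by edgeR), and within 11 to 30, with that 1 female pool, it was -3.30 (0.837). With the replicate number as a block in the fit of all 13 libraries the adjusted p was 0.192, and in the 7 intact libraries alone it was 0.0972 without and 0.00295 with the block. It was not called by limma voom (0.153) or with adjustment over autosomal genes only (0.0556), and at a minimum count of 50 it was not tested.

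Receptor genes for both peptides did not pass. Kiss1r was 11.1, 10.4 and 13.3 CPM in females and 10.5, 11.8, 10.8 and 8.55 CPM in males (log2 -0.16, SE 0.142, 95% interval -0.46 to 0.15, adjusted p 0.865 by edgeR). Calcr, the calcitonin receptor that binds amylin together with Ramp proteins, had a log2 of -0.02 (SE 0.299). The Ramp genes, added after the Iapp value was seen, gave -0.18 for Ramp1, -0.26 for Ramp2 and -0.07 for Ramp3, and none of these passed.

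**Figure D2:**
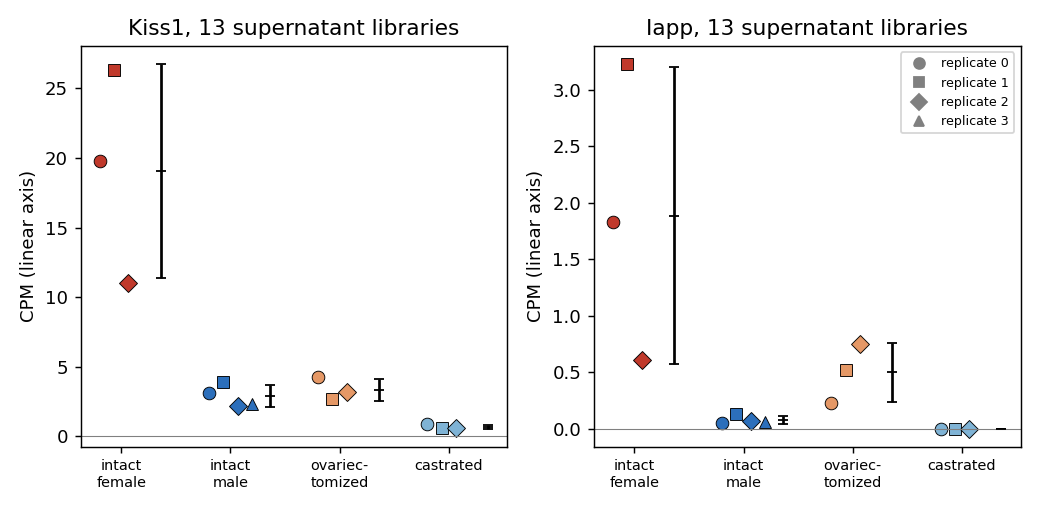
CPM of Kiss1 and Iapp (linear axes) in the 13 supernatant libraries by group, with symbols for replicate numbers and bars for mean ± SD. All intact females lie above all intact males for both genes, and the castrated libraries hold no count of Iapp.

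Kiss1 was also higher in females between the gonadectomized groups, and all gonadectomized libraries of each sex lay below all intact ones of that sex, a difference not tested here. Ovariectomized replicates held 4.23, 2.68 and 3.15 CPM and castrated replicates 0.864, 0.608 and 0.616 CPM (log2 -2.26, SE 0.344, adjusted p 0.0231 by edgeR). It was the only autosomal gene called between the gonadectomized groups (0.00639%), and without any one of 5 of the 6 libraries this call was lost (adjusted p 0.0597 to 0.272). Without the sixth, ovariectomized replicate 2, Kiss1 was called (0.00311) along with many others, 1564 genes being higher in ovariectomized females and 1183 in castrated males. The contrast between the sexes did not pass a test of its difference between gonadal states (log2 -0.47, SE 0.444, p 0.309, adjusted p 1 by edgeR). Iapp had 6, 14 and 29 counts in the ovariectomized replicates and 0 in each castrated one. With a floor of 3 counts per library for the castrated pools, its mean was at least 7.72-fold higher in ovariectomized females. This contrast of Iapp did not pass (adjusted p 0.108 by edgeR), though it did without ovariectomized replicate 2 (0.00959). No autosomal gene passed the interaction test (270 of 15658, 1.72%, at an unadjusted p under 0.05, and 3 with DESeq2).

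The immunoprecipitates of the same pools, enriched for GnRH neurons, spread more between replicates (biological coefficient of variation 0.56 against 0.181). Kiss1 stood at 30.5, 30.2 and 11.4 CPM in females and 2.00 to 3.17 CPM in males (log2 -3.14, SE 0.58). Its adjusted p there was 0.184 by edgeR, and no autosomal gene passed (628 of 15467, 4.06%, at an unadjusted p under 0.05). The 2 fractions come from the same mice and are not independent.

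No other autosomal gene passed in the main edgeR fit, and the genes nearest to passing are given as values. Of those higher in females, Pttg1, the gene of securin, which restrains chromosome separation, had 31.1, 26.8 and 34.0 CPM in females and 14.7, 10.4, 20.7 and 14.98 CPM in males (log2 -1.01, SE 0.215). Its adjusted p was 0.447 by edgeR. Between gonadectomized groups its log2 was 0.08. BC039966 had a log2 of -0.80 (SE 0.166). Hmx2, a homeobox gene of the hypothalamus, was 5.26, 7.93 and 5.30 CPM in females and 2.96 to 3.899 CPM in males (log2 -0.90). Rsph1 (-0.52), a gene of motile cilia, Cd24a (-0.54), Serpina3h (-1.71), Bpifb1 (-1.15), the kinesin light chain gene Klc3 (-0.59), Ppp1r36 (-0.74), Mafa (-0.61), the keratin gene Krt14 (-1.60) and Tnnt2 (-0.46) lay on the same side. Pttg1 and BC039966 were also among the genes called by DESeq2.

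Of those higher in males, Slc25a47, a mitochondrial carrier gene, had the lowest p. It stood at 2.95, 2.85 and 3.44 CPM in females and 5.58, 5.28, 4.37 and 5.30 CPM in males (log2 0.73, SE 0.155, adjusted p 0.447 by edgeR, called by DESeq2). Between gonadectomized groups it had the opposite sign (log2 -0.50), and the difference between the states did not pass (adjusted p 0.908 by edgeR). Greb1, a gene known to be induced by estrogen receptor, was 1.92, 1.08 and 0.656 CPM in females and 3.64, 2.94, 2.74 and 3.67 CPM in males (log2 1.43, SE 0.347, adjusted p 0.861 by edgeR). It was 1.12 without female replicate 2. With the replicate number as a block in the 7 intact libraries, a fit described further on, Greb1 was called (log2 1.45, adjusted p 0.0287 by edgeR). Cckar, a cholecystokinin receptor gene, was 5.94 to 7.11 CPM in females and 8.40 to 11.7 CPM in males (log2 0.66). Gna14 (1.31), a G protein subunit gene, H2-Q2 (0.84), Ugt8a (0.75), an enzyme of myelin lipid synthesis, Lamb3 (0.62), the keratin genes Krt20 (1.30) and Krt12 (1.27), Shisa6 (0.57), Thg1l (0.76), Gabra5 (0.40) and Tmem117 (0.59) lay on the same side. Pcdhgb6 (0.73) and Pcdha7 (0.79) belong to clusters that share exons, and H2-Q2 to a family of near copies, so their counts are uncertain. Without female replicate 2, only Kiss1 and Iapp of the 29 named genes passed. All 29 kept their sign, which is no result, because they were named for groups that do not overlap. Krt5, a keratin gene named after its value was seen, was the third gene called then (log2 -6.91, adjusted p 0.0386 by edgeR). Of the 29, the 7-library fit with the block called 6 higher in males, which besides Greb1 were Ugt8a (adjusted p 0.0214), Cckar (0.0287), Tmem117 (0.0287), Gabra5 (0.0321) and Pcdhgb6 (0.0239).

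**Figure D3:**
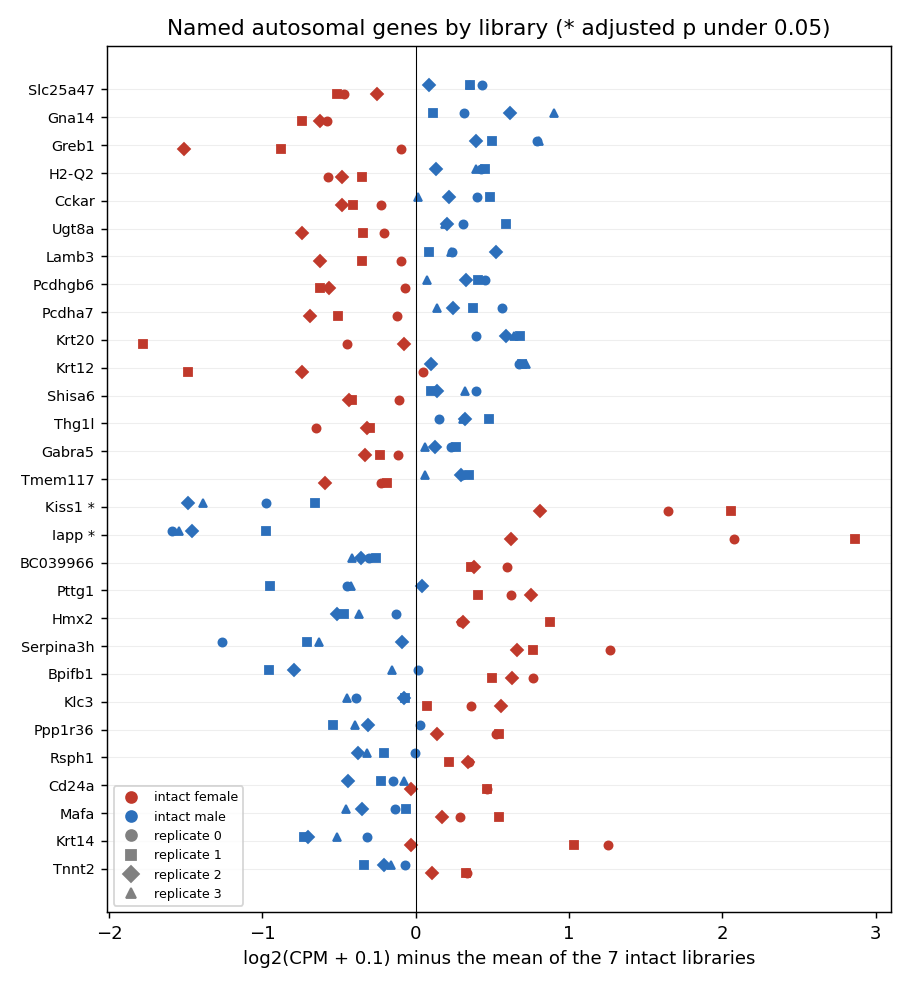
Log2(CPM + 0.1) of the 29 named genes in each intact supernatant, relative to the mean of the 7 libraries (horizontal axis), females red and males blue, with symbols for replicate numbers. The groups do not overlap for any of them, as the naming rule required, and the widest gaps are those of Kiss1 and Iapp.

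**Figure D4:**
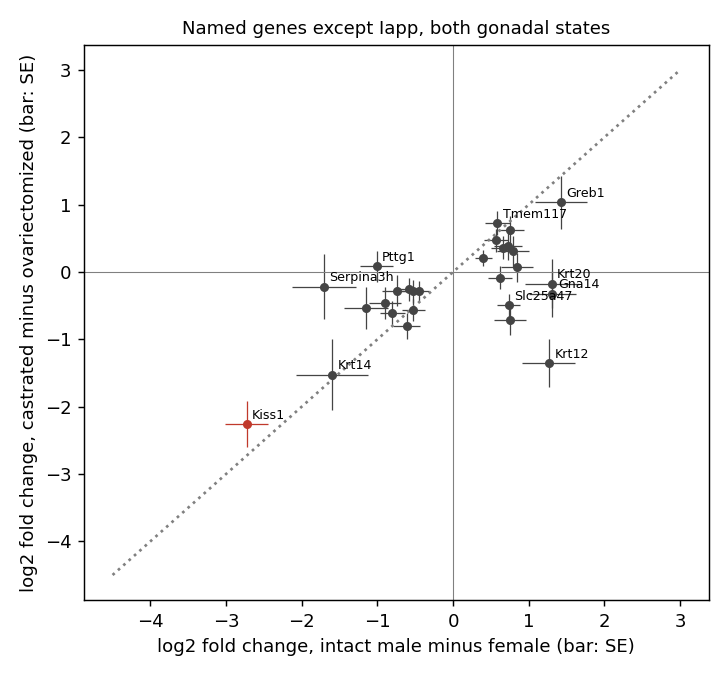
Log2 fold change between the sexes in intact mice (horizontal axis) against that in gonadectomized mice (vertical axis) for the named genes other than Iapp, with SE bars and a dotted line of equality. Kiss1 lies near the line, while Slc25a47 and Krt12 have opposite signs in the 2 states.

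The 19 tested genes of kisspeptin neurons and their transmitters had a median log2 of 0.02, beside 0.02 over all autosomal genes, with Kiss1 the only member called. Th, which encodes the rate-limiting enzyme of catecholamine synthesis and is expressed in many female kisspeptin neurons, was 61.4, 73.2 and 74.6 CPM in females and 57.7, 51.5, 52.2 and 51.9 CPM in males (log2 -0.39, p 0.0276, adjusted p 0.861 by edgeR). The peptide genes Tac2 (-0.26), Pdyn (0.15), Penk (0.11), Cartpt (-0.20) and Gal (-0.09) did not pass. Of 17 genes known for sex differences in the hypothalamus, 1 (Kiss1) was called. Cyp19a1, the aromatase gene, was 0.456, 0.132 and 0.266 CPM in females and 1.03, 0.637, 0.862 and 0.719 CPM in males (log2 1.52, SE 0.473, p 0.00606), which did not pass (adjusted p 0.861 by edgeR). Moxd1 (0.42) and Ecel1 (0.28) did not pass either.

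None of 21 steroid receptor and coregulator genes was called by edgeR. At an unadjusted p under 0.05, 1 was higher in males, beside 1.7% of all tested genes, and 0 were higher in females. Esr1, the gene of estrogen receptor alpha, was 18.9, 16.95 and 21.7 CPM in females and 15.2, 10.03, 12.5 and 16.7 CPM in males (log2 -0.49, SE 0.305). Esr2 had a log2 of 0.61 and the progesterone receptor gene Pgr 0.14. Among 31 preoptic neuropeptide genes, only Kiss1 was called. Nmb, the neuromedin B gene, was 1.15 to 1.82 CPM in females and 2.14 to 3.24 CPM in males (log2 0.85, p 0.0116, adjusted p 0.861 by edgeR). Oxt, the oxytocin gene, spread from 125 to 366 CPM in females and from 111 to 280 CPM in males. None of 42 neuropeptide receptor genes was called without the block. At an unadjusted p under 0.05, 4 were higher in males, beside 1.7% of all tested genes, and Trhr (0.77), Hcrtr1 (0.56) and Tacr3 (0.44) were among them.

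The labels do not say what a replicate number marks. It was taken to pair the intact pools because same-numbered ones deviated together in these data (correlations of 0.319, 0.368 and 0.346). A fit of the 7 intact libraries with the number as a block called 238 autosomal genes higher in males (1.54% of 15409) and 12 higher in females (0.0779%). Male replicate 3 has no female partner, so the contrast rested on 3 pairs, with 2 residual degrees of freedom. The block in all 13 libraries called 1 gene and the block within gonadal state 2. The former gives intact and gonadectomized pools of a number the same term, though same-numbered gonadectomized pools did not deviate together (correlations of 0.021, 0.029 and 0.056). Without pair 2, the 7-library block called 652 and 206, with 2 pairs and 1 residual degree of freedom, so both fits had little replication of their own. The last 2 of these fits were added after the data were seen. The 238 genes had a median log2 of 0.42, and 3 of them were 2-fold or more higher. Their longest transcripts had a median of 4755 nucleotides against 3287 over all tested autosomal genes. With genes split by transcript length into 3 equal parts, 0.251% of the shortest, 1.29% of the middle and 3.05% of the longest were among them. The median log2 over all genes of the shortest and longest parts was -0.08 and 0.11 in intact mice and -0.21 and 0.14 between gonadectomized groups. All 238 were also higher in castrated than in ovariectomized libraries, as were 50.4% of all tested genes. The part of transcript length, or of a property of the RNA that goes with it, in these calls was not tested. Without the block, 54 of the 238 had groups that did not overlap, beside 2.71% of all tested genes, but the 238 were chosen on the same contrast. As a median over the 238 genes, log2 levels relative to the 13 supernatants were 0.00, 0.03 and -0.52 in female replicates 0, 1 and 2 and 0.39, 0.46, -0.05 and 0.01 in male replicates 0 to 3. Male replicate 2 lay below female replicates 0 and 1. The blocked fit chose genes that differ within pairs, so the order within pairs is no result.

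GABA signalling genes were among the calls of that blocked fit. Over all tested autosomal genes it called 1.54% higher in males and 0.0779% higher in females, the shares beside which the counts below stand. Of genes in the longest part by transcript length, 3.05% were called higher in males. Of 12 tested autosomal GABA-A receptor subunit genes, 6 were called higher in males with the block and 0 without it, with a median log2 of 0.32 without the block and 0.11 when female replicate 2 was left out. Gabrb2 was 84.7, 83.5 and 68.1 CPM in females and 96.2, 116, 90.5 and 90.6 CPM in males (log2 0.32, adjusted p 0.861 by edgeR without and 0.0448 with the block). Gabra2 and Gabra5 were also among the 6. The vesicular GABA transporter gene Slc32a1 (blocked log2 0.57, adjusted p 0.0118 by edgeR) was called too, while the synthetic enzyme genes Gad1 (0.28) and Gad2 (0.27) were not. Oligodendrocyte markers gave 5 of 19 with the block, among them the myelin genes Mog and Mag, and their median without the block was 0.23. With the block, Esr1 (log2 -0.62, adjusted p 0.0398), Oxt (-0.45, 0.0418), Pttg1 (-1.04, 0.00417), Cd24a and Rsph1 were called higher in females. Amd1 and Amd2, near-identical genes, were called in opposite directions and are uncertain. Of the lists given above, that fit called 2 of the 19 genes of kisspeptin neurons higher in females and 2 higher in males, and likewise 2 and 2 of the 17 known for sex differences. Of 31 neuropeptide genes it called 2 and 1, and of 21 steroid receptor and coregulator genes Esr1 alone. Of 40 neuropeptide receptor genes tested there, 3 were called higher in males, Trhr (log2 0.81, adjusted p 0.038 by edgeR) among them.

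Without the block, none of 20 microglial, 20 astrocyte, 20 endothelial and mural or 12 ependymal and tanycyte markers was called by edgeR. At an unadjusted p under 0.05, 0, 1, 0 and 3 were higher in females, beside 1.89% of all tested genes, and 0 of each were higher in males. With the block, 2 of the 20 astrocyte and 1 of 9 oligodendrocyte precursor markers were called higher in males (beside 1.54% of all genes). Of the 12 ependymal markers, 1, Rsph1, was called higher in females (beside 0.0779%). Ependymal markers had a median log2 of -0.34 and a summed level of 105 to 136 CPM in males and 129 to 173 CPM in females, so the groups overlapped. Among them Rsph1, Dnahc5 (-0.74) and Dynlrb2 (-0.43) had an unadjusted p under 0.05. GnRH neuron genes had a median of -0.72, which was 0.10 without female replicate 2. Cortical and olfactory markers had -0.41, and 0.19 without that replicate. Blood markers had 2.26 over 6 members, and -0.44 over 4 members without male replicate 3. The part of these cells in the results was not tested. In Kiss1 every female library lay above every male library, which fixed its direction in the pairs and without either library.

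**Figure D5:**
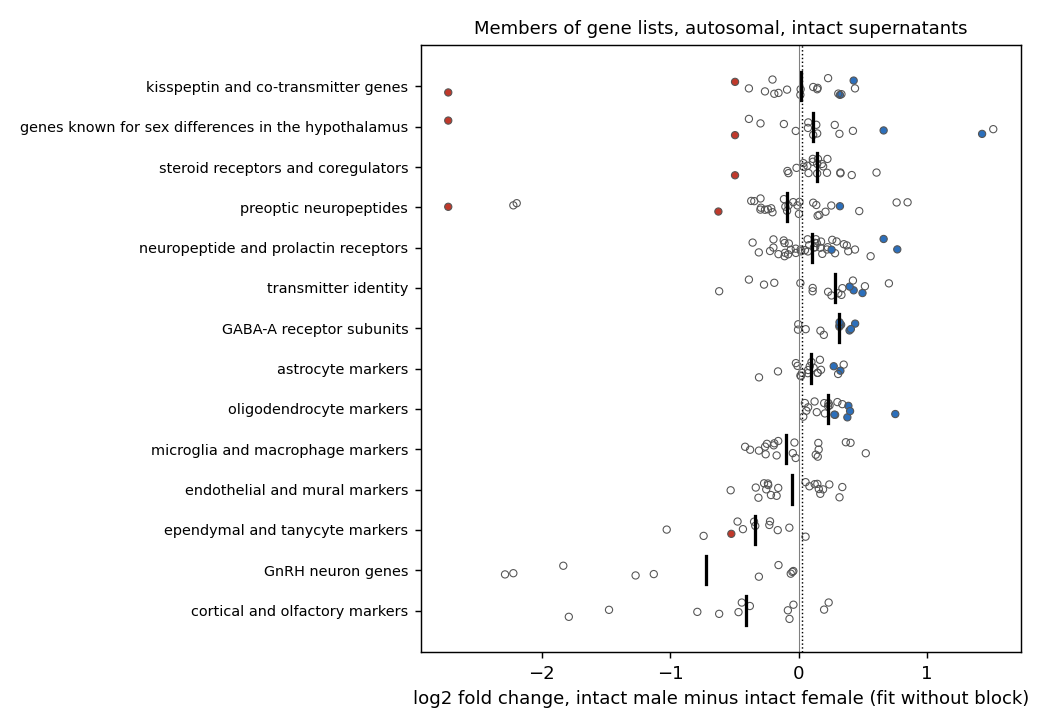
Log2 fold change (intact male minus intact female, fit without the block) of the tested autosomal members of 14 gene lists, with bars for list medians and a dotted line for the median of all autosomal genes. Filled points were called in the 7-library fit with the replicate block, blue higher in males and red higher in females; only Kiss1 among the points shown was also called without it.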

How the data were processed

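Preoptic supernatants were sequenced from cDNA made with a SMART-Seq kit, which does not mark strand, so overlapping and antisense genes are uncertain. The deposited table holds the authors' estimated counts per gene. Per the submitters' processing notes, TopHat2 2.0.9, Bowtie2 2.1.0 and Cuffdiff 2.1.1 were used with mm10. Which annotation was used, and how multiply mapping reads were handled, is not given in the sources used here. Estimated counts were rounded. Groups were compared on 13 supernatants in 4 groups with the two-sided quasi-likelihood F-test of edgeR (4.0.16, under R 4.3.3), after scaling by TMM and removal of low genes by filterByExpr (minimum count 10, total 15), and p-values were adjusted by Benjamini-Hochberg over every tested gene. The fit without a block was tested on simulated counts with the same spread for every gene and no pairing. That test does not cover the blocked fits or outlying libraries. CPM values use effective library sizes. Chromosomes came from GENCODE and RefSeq. Symbols of 247 genes could not be placed. Alternatives used DESeq2 1.42.0 and limma 3.58.1.

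Same-numbered male and female intact pools deviated together (correlations of 0.319, 0.368 and 0.346, and at most 0.133 for other pairs), so the labels' numbers were taken to pair them. Gonadectomized pools did not pair. No replicates agreed within sampling noise. Named genes were all those called, then those of lowest p whose groups did not overlap and whose higher mean was at least 1 CPM, up to 15 per direction, predicted genes left out, and list members. Some genes these rules select are not reported here. The members and lists were chosen with earlier results of these data known. Replicates are separate pools of mice.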

Additional observations from a re-analysis of the deposited data

Results flagged for a closer look

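In 86 genes examined over the 4 intact male supernatants, 7 had 1 library far from the other 3, and chance alone flags about 1 gene in 20. Krt12 stood at 1.33 CPM in male replicate 2, below the others. In male replicate 0, Th stood at 57.7 CPM, Esr2 at 2.32 CPM and Dynlrb2 at 7.02 CPM, above the others. In male replicate 3, Beta-s, a beta-globin gene, stood at 1884 CPM, Hba-a2, an alpha-globin gene, at 967.1 CPM, and Ramp3 at 3.25 CPM, the last below the others.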

How the results depend on the processing

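Kiss1 stayed called and higher in females under every alternative tried for the intact contrast. The count of genes higher in females, 2 in the main analysis, was 1 with the replicate block in 13 libraries, with the 7 intact libraries alone, with limma voom, with a minimum count of 50 or with adjustment over autosomal genes only, 5 with DESeq2, and 10 with libraries numbered 11 to 30 (1 female pool). It was 12 with the 7-library block and 206 when pair 2 was left out of it. Leaving out single libraries gave 1 to 3, the highest without female replicate 2. The count higher in males, 0 in the main analysis, was 238 and 652 in those last 2 fits, and 1 with DESeq2, with libraries 11 to 30 and with the 4 intact libraries numbered 1 to 10. Between gonadectomized groups, leaving out single libraries gave 0 to 1564 genes higher in females and 0 to 1183 higher in males. The highest of both came without ovariectomized replicate 2, with 15861 autosomal genes tested. DESeq2 called 3 genes in the interaction test. In the immunoprecipitate, 6 genes were higher in males without female replicate 2. The cause of these shifts was not tested. Scalings moved the median over all genes by less than 0.1 log2. Few pools, 3 and 4, and low counts for Iapp limit the precision.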
